A study of Mus musculus with 18 samples.

Results

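Cumulus cells, the somatic cells that surround the oocyte in the ovarian follicle, were compared between 12 h and 4 h after human chorionic gonadotropin (hCG) in the ovaries of wild type mice. The comparison rests on 6 of the 18 RNA-seq libraries of the series, 3 at each time, which were chosen by titles that name cumulus cells and the hour. The remaining libraries are cumulus cells at 0 h, used here for levels only, and mural granulosa cells, which line the follicle wall, at 0, 4 and 12 h, with 3 libraries in each group. The mural libraries at 4 and 12 h served to ask whether the change from 4 to 12 h differed between the cell types. All groups were wild type, and the labels separate them by cell type and time after hCG alone. The labels name no mouse strain, age or hormone given before hCG. The cell-type characteristic of the cumulus libraries did not match their titles, so the titles were followed.

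The LH surge, which hCG imitates, makes mural granulosa cells release EGF-like growth factors, and these act on the cumulus cells. Cumulus cells then secrete a matrix of hyaluronan, whose chains are linked by Tnfaip6, Ptx3 and the heavy chains of inter-alpha-trypsin inhibitor, and the cumulus mass expands around an oocyte that resumes meiosis. Later the follicle ruptures, the expanded cumulus travels with the oocyte into the oviduct, and granulosa-derived cells switch from making estradiol to making progesterone.

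The 6 libraries held between 34443908 and 44666006 counts. The granulosa and cumulus markers (10 genes) summed to between 3635 and 6059 CPM (counts per 1000000 of the TMM-scaled library size) at 4 h and to between 2075 and 2483 CPM at 12 h, and 7 of the 10 were lower at 12 h. Stroma and fibroblast markers summed to between 3.88 and 4.34 CPM at 4 h and to between 10.4 and 14.4 CPM at 12 h, with Col1a1 and Col3a1, 2 of 5 tested, higher, against at least 420.6 CPM in every mural library at 4 and 12 h. The 15 oocyte markers summed to 2718, 1396 and 8724 CPM in the libraries at 4 h and to 8.42, 11.5 and 6.26 CPM at 12 h. Replicate 3 at 4 h, with the highest oocyte sum, stood apart from its group. It was the lowest of the 3 libraries at 4 h for 27 of the 30 key genes of ovulation fixed for this work, and for 7775 of all 17143 genes tested. The list counts below were therefore also made without it. Globin transcripts, whose near-identical copies can share reads, rose: the erythroid list, of which 4 of 5 tested members were higher, summed to between 6.01 and 9.96 CPM at 4 h and to 108.9, 17.9 and 41.7 CPM at 12 h. The oviduct epithelium list, with 1 of 3 tested members higher and 1 lower, summed to at most 13.2 CPM and the ovarian surface epithelium list, with 1 of 3 lower, to at most 2.77 CPM in these libraries. The labels do not tie libraries to animals, so the p-values reflect the spread among these libraries, part of which may be technical.

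Between 4 and 12 h the cumulus transcriptome was rebuilt on a large scale. Spp1, Tgm2, Npy4r, Hdc and Pdcd1 were among the genes that rose most, and with them rose 22 of 24 genes of cholesterol synthesis and uptake and 9 of 15 genes of progesterone synthesis. All 22 genes of an S phase list fell, as did 19 of 21 mitosis genes, 12 of 14 genes of estradiol synthesis and the follicular phase, 10 of 14 neuropeptide genes and all 13 mitochondrially encoded transcripts. Of 17143 genes tested, 4294 were higher at 12 h (25% of the genes tested) and 4909 were lower (28.6%) by edgeR's quasi-likelihood test at an adjusted p under 0.05. With a change of at least 2-fold added, 2432 were higher (14.2%) and 3546 were lower (20.7%). The median log2 change of all genes tested was -0.06, and 0.05 outside the oocyte-linked genes described below.

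**Figure D1:**
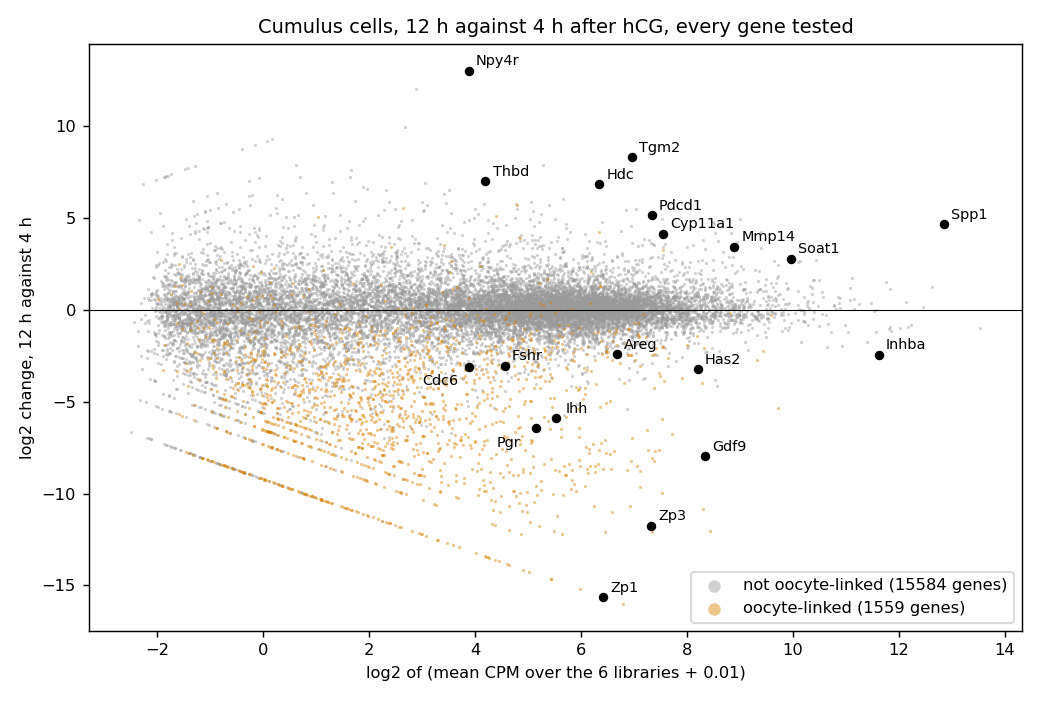
Log2 change of each of 17143 genes tested from 4 to 12 h in cumulus cells (vertical axis) against the log2 of its mean CPM over the 6 libraries plus 0.01 (horizontal axis). Orange points are the 1559 genes whose level followed oocyte RNA in the libraries at 0 and 4 h, most of which lie far below 0, and black points are genes named in the text.

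The largest falls belonged to transcripts of the oocyte. Zp1, a zona pellucida glycoprotein, stood at 107, 53.1 and 354 CPM in the libraries at 4 h and at 0 in all 3 libraries at 12 h, which is at least 5986-fold lower when set against a floor of 3 counts over the group. Eif4e1b, an oocyte form of the cap-binding translation factor, had no counts at 12 h either and was at least 7708-fold lower. Gdf9, the oocyte growth factor that acts on cumulus cells, stood at 421, 206 and 1304 CPM at 4 h and 2.27, 3.96 and 1.85 CPM at 12 h, and Zp3 at 201, 101 and 655 CPM and 0.0295, 0.0879 and 0.158 CPM. The groups did not overlap for any of these. All 15 oocyte markers were lower, by between -6.41 and -15.65 on the log2 scale. In mural cells the same 15 genes had a median log2 change of 0.04.

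To keep oocyte RNA apart from cumulus RNA, a gene was called oocyte-linked where its log2 CPM, centred within groups, followed the log2 sum of the oocyte markers over the 6 cumulus libraries at 0 and 4 h with a correlation of at least 0.9 and a slope of at least 0.5. That rule took 1559 of the tested genes, of which 1328 were lower at 12 h, 26 were higher and 205 were not called. The rule uses the libraries at 4 h, so these counts describe the set. It does not take out all oocyte RNA: the oocyte marker Figla (log2 change -9.13) fell outside the set. Genes outside it, also those called lower, can still hold oocyte RNA. In bulk libraries less RNA per cell and fewer cells of a type cannot be told apart. Outside the oocyte-linked genes 15584 were tested, and 4268 were higher (27.4%) and 3581 lower (23%).

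The transcript with the largest gain in level was Spp1, osteopontin, a secreted ligand of integrins. Its level was 578, 564 and 466 CPM in the libraries at 4 h and 14421, 14429 and 13669 CPM at 12 h, all 3 above every library at 4 h. The log2 change was 4.66 ± 0.18 (SE, adjusted p = 3.48e-05), and the mean at 0 h was 1.6 ± 0.629 CPM (SD, n = 3). Gm42793, which overlaps Spp1 on the same strand and can share its reads, rose by 2.60 ± 0.17. In mural cells Spp1 rose by 4.83 ± 0.15, and the difference between the cell types was not called (-0.16 ± 0.18, adjusted p = 0.527). Itgb3, the integrin beta subunit that pairs with Itgav to bind osteopontin, went from 30, 26.3 and 41.2 CPM to 207, 247 and 222 CPM and rose by 2.73 ± 0.20 (adjusted p = 0.000118). Itgav itself was at 817, 997 and 491 CPM at 4 h and 575, 508 and 535 CPM at 12 h, overlapped between the times and was not called (adjusted p = 0.0889), but without replicate 3 at 4 h it was lower (adjusted p = 4.55e-05).

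Some of the other transcripts with large gains in CPM were named after their values were seen. Sdc1, the heparan sulfate proteoglycan syndecan-1, was at 4235, 3928 and 2657 CPM at 4 h and 9213, 8744 and 9168 CPM at 12 h and rose by 1.26 ± 0.21. Lox, the lysyl oxidase that cross-links collagen, was at 376, 308 and 193 CPM and then 1861, 2004 and 1783 CPM and rose by 2.63 ± 0.25. Both were higher in every library at 12 h. The cytoplasmic actin Actg1 rose by 1.52 ± 0.23, the stearoyl-CoA desaturase Scd2 by 1.76 ± 0.25 and prosaposin (Psap), a lysosomal activator of sphingolipid breakdown, by 2.65 ± 0.17. The largest losses in CPM outside mitochondrial transcripts were those of Inhba, described below, and of Thbs1, the matrix protein thrombospondin-1, which went from 4084, 5282 and 2908 CPM to 1472, 1091 and 1274 CPM.

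Where the higher group averaged 20 CPM or more, the steepest rise was that of Npy4r, a receptor of the neuropeptide Y family at chr14:34143992-34152489 of GRCm38. Npy4r had no counts in any library at 4 h and 27.7, 30.9 and 29.4 CPM at 12 h, at least 1110.2-fold higher by the same floor. Tgm2, the transglutaminase that cross-links extracellular proteins (chr2:158116402-158146436), was at 0.359, 0.759 and 1.14 CPM at 4 h and 294, 218 and 229 CPM at 12 h. The groups lay far apart, with a log2 change of 8.31 ± 0.42 (adjusted p = 5.68e-05). Rprd1b, which overlaps Tgm2 on the other strand, had means of 39 ± 11.9 CPM at 4 h and 37 ± 1.53 CPM at 12 h and was not called, though without replicate 3 at 4 h it was lower (adjusted p = 0.0225).

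Several genes better known from blood vessels and immune cells followed. Thbd, thrombomodulin, a thrombin receptor of endothelium (chr2:148404466-148408188), was at 0.471, 0.243 and 0.0556 CPM and then 46.9, 27.5 and 34.5 CPM, a rise of 7.02 ± 0.57 (adjusted p = 0.000183). Hdc, histidine decarboxylase, which makes histamine (chr2:126593667-126619299), was at 1.3, 1.12 and 1.53 CPM and then 174, 160.2 and 147 CPM, a rise of 6.86 ± 0.18 (adjusted p = 2.45e-05). Vsir, the immune checkpoint protein VISTA (chr10:60346851-60372684), was at 0.539, 0.182 and 0.167 CPM and then 66.4, 77.7 and 87.3 CPM, a rise of 7.89 ± 0.41 (adjusted p = 5.76e-05). For each of these 3 genes every library at 12 h lay above every library at 4 h. The other genes among the 10 steepest rises were Camk2a (6.51 ± 0.33), a calcium- and calmodulin-dependent kinase, Gprin3 (6.30 ± 0.61), Gas1 (6.06 ± 0.35), a membrane protein of growth arrest that binds hedgehog ligands, the amino acid transporter Slc36a2 (5.89 ± 0.21) and Mgst2 (5.79 ± 0.32), a microsomal glutathione transferase.

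Immune surface genes known in cumulus cells (13 genes, 10 tested) were mostly higher, beside 25% higher and 28.6% lower among all genes. In that list, which also holds the secreted ligand Spp1 and the integrin genes Itgb3 and Itgav, 6 rose and 1 fell. Spp1 and Itgb3, described above, are among the 6. The count of lower members was 2 without replicate 3 at 4 h. Pdcd1, the checkpoint receptor PD-1, was at 9.18, 10.1 and 6.17 CPM at 4 h and 291, 335 and 315 CPM at 12 h and rose by 5.15 ± 0.22 (adjusted p = 3.88e-05). Cd52, a small GPI-anchored glycoprotein of lymphocytes, went from 0.74, 0.394 and 0.834 CPM to 30.9, 30.9 and 32.4 CPM and rose by 5.50 ± 0.29 (adjusted p = 5.76e-05). Neither gene overlapped between the times. Of the macrophage and leukocyte markers 0 of 6 tested were called by edgeR, DESeq2 or limma voom, with 0, 1 and 1 at an unadjusted p under 0.05. Their sum ran from 6.31 to 13.8 CPM at 4 h and from 10.9 to 14.1 CPM at 12 h, and Ptprc and Itgam were too low to be tested. Of the 4 lymphocyte markers 3 were also too low to be tested. In mural cells Pdcd1 changed by 2.03 ± 0.21 and Cd52 by 0.12 ± 0.26, and both differences between the cell types were called (3.13 ± 0.28 and 5.38 ± 0.37).

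The cytokine and innate signal list (25 genes, 20 tested) had 12 members higher and 2 lower, or 4 lower without replicate 3 at 4 h. Among all genes 25% were higher and 28.6% lower. Il33, an alarmin of the interleukin-1 family, rose from 2.2, 1.34 and 2.14 CPM to 89.9, 58.9 and 71.4 CPM, by 5.21 ± 0.27 (adjusted p = 5.76e-05). Osmr, the receptor subunit for oncostatin M, rose from 4.98, 4.16 and 4.11 CPM to 68.2, 63.6 and 64 CPM, by 3.82 ± 0.14 (adjusted p = 2.76e-05). Both genes were higher in every library at 12 h. Socs3, the feedback inhibitor of cytokine receptors, rose by 2.39 ± 0.19, and Il11 fell by 2.72 ± 0.50. The chemokines Ccl2, Ccl7, Ccl20 and Cxcl2 and the cytokine Tnf were too low to be tested.

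**Figure D2:**
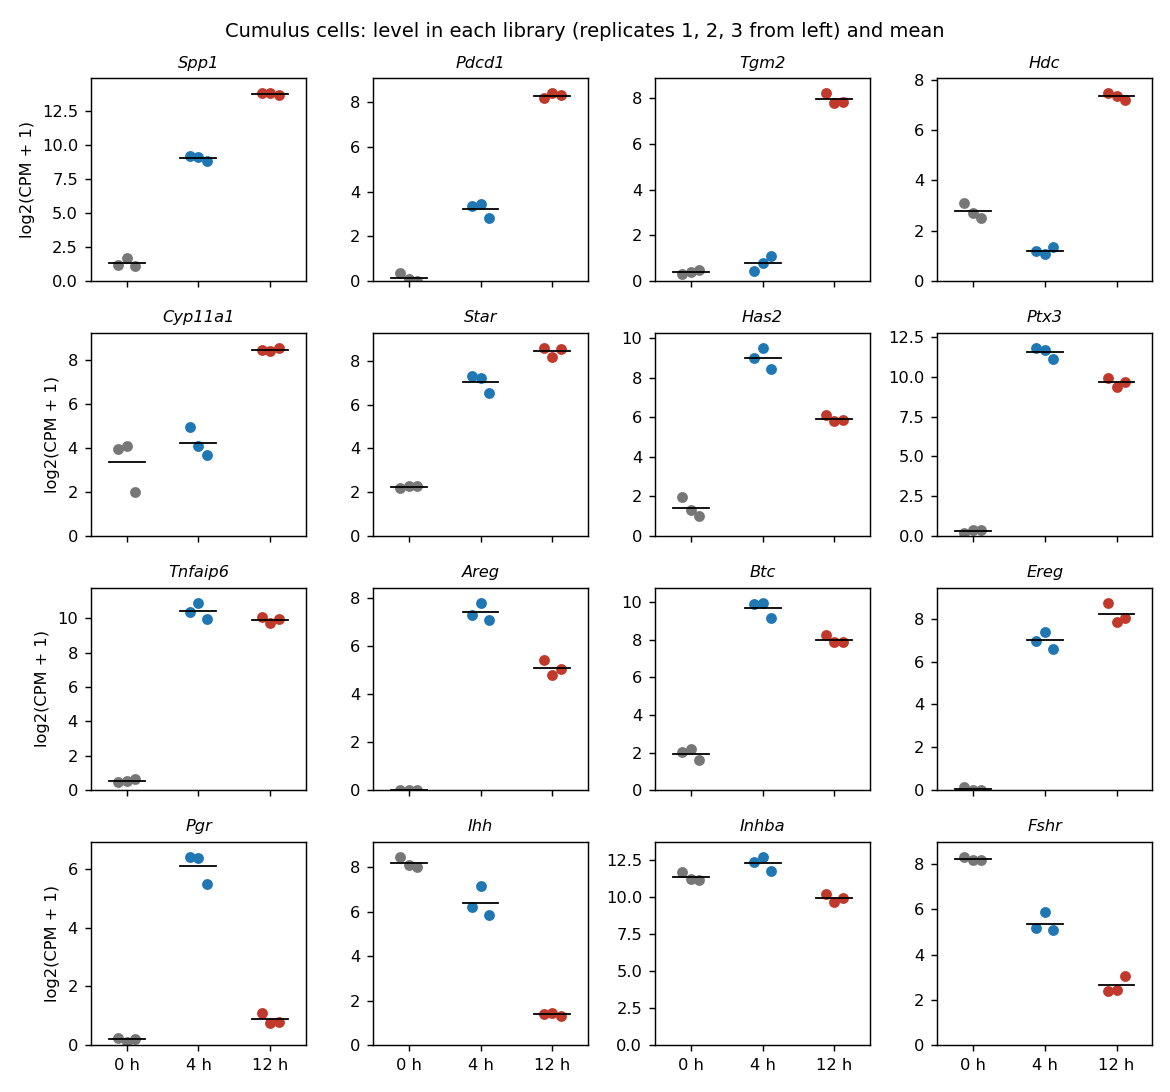
Level of 16 genes in each cumulus library at 0, 4 and 12 h after hCG, as log2(CPM + 1), with the mean of each group as a line (3 libraries per group, replicates 1, 2 and 3 from left to right). Spp1, Pdcd1, Tgm2, Hdc and Cyp11a1 were highest at 12 h, whereas Has2, Ptx3, Areg, Btc, Pgr, Ihh, Inhba and Fshr were below their 4 h values.

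Pgr and Ihh were among the largest falls outside the oocyte-linked set. Pgr, the progesterone receptor that ovulation requires (chr9:8899833-8968611), was at 84.1, 82.4 and 44.5 CPM at 4 h and at 1.12, 0.674 and 0.713 CPM at 12 h and fell by 6.45 ± 0.36 (adjusted p = 5.86e-05). Ihh, the hedgehog ligand by which granulosa cells signal to theca (chr1:74945315-74951672), was at 73.5, 143 and 57 CPM and then 1.65, 1.7 and 1.45 CPM and fell by 5.89 ± 0.41 (adjusted p = 0.000108). Both genes were lower in every library at 12 h than in any at 4 h. Among such genes whose groups did not overlap and whose higher mean reached 20 CPM, the steepest fall was that of Esm1, an endothelial proteoglycan, at -6.70 ± 0.73, from a mean of 23.2 ± 9.29 CPM to 0.232 ± 0.261 CPM. Ass1, the argininosuccinate synthase of arginine synthesis, fell by 5.75 ± 0.24, the nicotinic receptor subunit Chrna4 fell by 5.31 ± 0.44 and the protocadherin Pcdh10 fell by 5.12 ± 0.25. Lrrtm3 fell by 5.42 ± 0.25, and Ctnna3, inside which it lies on the other strand, fell by 3.77 ± 0.42. Reads of the 2 cannot be told apart if strand was not used in counting. Paqr9 (-5.25 ± 0.43), Ifi202b (-5.19 ± 0.46) and Fam196a (-4.97 ± 0.45) completed the 10 largest falls of this kind.

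The EGF-like ligands did not fall together. Areg, amphiregulin, was at 157, 222 and 133 CPM at 4 h and 41.5, 26.3 and 31.9 CPM at 12 h and fell by 2.42 ± 0.25 (adjusted p = 0.000407). Btc, betacellulin, was at 937, 995 and 564 CPM and then 298, 237 and 234 CPM and fell by 1.76 ± 0.24 (adjusted p = 0.0011). Ereg, epiregulin, was at 124, 168 and 94.4 CPM and then 428, 231 and 264 CPM and rose by 1.20 ± 0.29 (adjusted p = 0.0123). For all 3 the libraries of the 2 times were separate, Areg and Btc being lower and Ereg higher in each library at 12 h. Hbegf fell by 3.45 ± 0.47, whereas the receptor genes Egfr, Erbb2 and Erbb3 rose by 1.62 ± 0.27, 0.86 ± 0.19 and 2.87 ± 0.41. In all, 6 of the 11 genes of the list were higher and 5 lower, beside 25% and 28.6% of all genes.

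Downstream of these receptors, the ERK phosphatases and Sproutys (12 genes) had 4 members higher and 5 lower, beside 25% and 28.6% of all genes. Dusp4, a nuclear phosphatase of ERK, rose by 1.57 ± 0.26, and Errfi1, an inhibitor of the EGF receptor, rose by 1.37 ± 0.25, from 133, 196 and 163 CPM to 569, 314 and 445 CPM. Dusp10 fell by 1.74 ± 0.15. Spry4 fell by 4.87 ± 0.68, but it is oocyte-linked, with 74.7, 51.3 and 253 CPM at 4 h.

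Immediate early transcription factors, the first genes that growth factor signals switch on, had 10 of 21 members higher and 3 lower. Without replicate 3 at 4 h 8 were lower. Among all genes 25% were higher and 28.6% lower. Fosl2, an AP-1 subunit, was at 156, 147 and 97.4 CPM and then 752, 708 and 666 CPM, a rise of 2.35 ± 0.20 (adjusted p = 0.000197). Egr2 rose from 13.4, 19.7 and 8.67 CPM to 61.6, 66.3 and 67.3 CPM, by 2.16 ± 0.28 (adjusted p = 0.000955). Neither overlapped between the times. Egr1 did overlap, with 606, 1269 and 286 CPM at 4 h and 547, 352 and 432 CPM at 12 h. It was not called (adjusted p = 0.229), but without replicate 3 at 4 h it was lower (adjusted p = 0.0139). Crem, the cAMP-responsive modulator, fell by 1.79 ± 0.28, and Klf6 rose by 1.79 ± 0.38. Among the ovulatory transcription regulators (13 tested, 6 higher and 3 lower), Runx2 rose by 1.44 ± 0.18 and Cited2 by 1.22 ± 0.16, and Pparg, a target of the progesterone receptor, fell by 2.77 ± 0.22 from 207, 292 and 169.8 CPM to 38, 31.8 and 32.9 CPM.

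Of 15 tested genes of the hyaluronan expansion matrix 4 were higher and 4 lower, the latter 6 without replicate 3 at 4 h, beside 25% and 28.6% of all genes. The 4 lower genes were Has2, Ptx3, Itih5 (-2.59 ± 0.42), an inter-alpha-trypsin heavy chain, and the hyaluronan synthase Has3 (-2.39 ± 0.48), which is oocyte-linked. Has2, the hyaluronan synthase of cumulus expansion, was at 505, 726 and 351 CPM at 4 h and 67.4, 54.2 and 56.7 CPM at 12 h and fell by 3.21 ± 0.28 (adjusted p = 0.000219). Ptx3, the pentraxin that links hyaluronan chains, was at 3598, 3369.7 and 2261 CPM and then 969.9, 670.5 and 815 CPM and fell by 1.97 ± 0.23 (adjusted p = 0.000664). No library at 12 h reached the lowest at 4 h for either gene. Their overlapping partners on the other strand fell as well, Has2os with -2.21 ± 0.35 and Veph1 with -1.93 ± 0.31.

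Tnfaip6, which transfers the heavy chains onto hyaluronan, was at 1312, 1921 and 999 CPM and then 1078, 829 and 976 CPM, with overlapping groups. It was not called (log2 change -0.62 ± 0.25, adjusted p = 0.0732), but without replicate 3 at 4 h its adjusted p was 0.00147, and DESeq2 gave 0.0275. Vcan, the hyaluronan-binding proteoglycan versican, was at 1265, 1107 and 654 CPM and then 1462, 1632 and 1302 CPM and was not called (adjusted p = 0.142), though a fit to all 18 libraries called it higher (adjusted p = 0.028). Cd44, the hyaluronan receptor, rose by 1.33 ± 0.20, from 29.4, 29.9 and 17.8 CPM to 65.4, 66.6 and 70.6 CPM. The heparan sulfate proteoglycan Sdc4 rose by 3.53 ± 0.21, from 50.6, 46.2 and 30.5 CPM to 511, 475 and 543 CPM.

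Of the 5 tested genes of hyaluronan breakdown 1 was higher, Cemip, a protein that binds and depolymerizes hyaluronan, and 1 lower, the hyaluronidase Hyal2, beside 25% and 28.6% of all genes. Hyal2 fell by 0.38 ± 0.11 (adjusted p = 0.0205), but it was not called without replicate 1 at 4 h (0.0604), without replicate 1, 2 or 3 at 12 h (0.0969, 0.119 and 0.0897), with no filter on low counts (0.0899) or with a replicate block (0.0726). Cemip was at 0.965, 0.88 and 0.584 CPM at 4 h and 32.8, 33.4 and 30.5 CPM at 12 h and rose by 5.24 ± 0.23 (adjusted p = 4.27e-05), with no overlap. Of the matrix proteases and their inhibitors 10 of 20 tested were higher and 2 lower, beside 25% and 28.6% of all genes. Mmp14, the membrane-anchored metalloproteinase that activates pro-MMP2, was at 99.4, 70 and 58.5 CPM and then 895, 808 and 903 CPM, a rise of 3.45 ± 0.22 (adjusted p = 7.59e-05). Mmp19 rose from 2.04, 1.15 and 0.917 CPM to 41.5, 36.9 and 39.1 CPM, by 4.76 ± 0.31 (adjusted p = 8.19e-05). Both genes were separate between the times. Tmem198b, which overlaps Mmp19, rose by 1.43 ± 0.14. Adamts4, an aggrecanase and versicanase, rose by 3.39 ± 0.23, Mmp11 by 2.94 ± 0.15, the urokinase Plau by 2.16 ± 0.13 and the inhibitor Timp1 by 3.15 ± 0.16. Plaur, the urokinase receptor, fell by 1.38 ± 0.20. Plat, tissue plasminogen activator, fell by 3.70 ± 0.65 and is oocyte-linked.

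Of 17 tested genes of the prostaglandin pathway 5 were higher and 5 lower, or 8 lower without replicate 3 at 4 h, beside 25% and 28.6% of all genes. Ptgs2, the inducible cyclooxygenase of ovulation, was at 1993, 2771 and 1236 CPM and then 1476, 1049 and 1193 CPM. The groups overlapped and it was not called (log2 change -0.75 ± 0.30, adjusted p = 0.0668), and without replicate 3 at 4 h its adjusted p was 0.000461, and DESeq2 gave 0.02. Slco2a1, the transporter that takes prostaglandins up into cells, rose from 14.9, 20.7 and 13.2 CPM to 74.4, 73 and 73.5 CPM, by 2.12 ± 0.18 (adjusted p = 0.000209). Ptgs1, the constitutive cyclooxygenase, rose by 2.91 ± 0.36 at a level of 4.43, 4.81 and 5.54 CPM at 12 h. The prostacyclin synthase Ptgis fell by 1.24 ± 0.16 and the aldose reductase Akr1b3 fell by 1.01 ± 0.15.

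Genes of progesterone synthesis were mostly higher and those of estradiol synthesis lower. Cyp11a1, the side-chain cleavage enzyme that makes pregnenolone from cholesterol, was at 29.8, 16 and 11.8 CPM at 4 h and 351, 340.2 and 377 CPM at 12 h. Every library at 12 h lay well above the highest at 4 h, and the rise was 4.15 ± 0.35 (adjusted p = 0.000208). Star, which carries cholesterol to the inner mitochondrial membrane, was at 159, 147 and 92.5 CPM and then 384, 292 and 367 CPM and rose by 1.33 ± 0.22 (adjusted p = 0.00259). Akr1c18, the enzyme that inactivates progesterone by reducing it, rose too, from 2.15, 3.85 and 2.2 CPM to 64.4, 76.9 and 58.6 CPM, by 4.55 ± 0.28 (adjusted p = 6.82e-05). Of the 15 genes of progesterone synthesis 9 were higher, Akr1c18 among them, and 2 lower, beside 25% and 28.6% of all genes. The key gene Hsd3b1, also of this list, was not called (log2 change 0.30 ± 0.20, adjusted p = 0.24). It was at 764, 794 and 492 CPM at 4 h and 854, 825 and 952 CPM at 12 h. The rises took in the translocator protein Tspo (2.72 ± 0.14) and Nr5a1 (1.0 ± 0.17), which encodes the transcription factor SF-1. Hsd11b2, which inactivates glucocorticoids, fell by 3.30 ± 0.38. The theca markers Cyp17a1, Insl3 and Tcf21 were too low to be tested, and the sum of that list, which went from between 123.7 and 218 CPM to between 406 and 495 CPM, rose through Star and Ptch1.

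Of the 14 genes of estradiol synthesis and the follicular phase, 12 were lower and 1, Hsd17b7, was higher. Among all genes 28.6% were lower and 25% higher. Cyp19a1, aromatase, was at 60.3, 111 and 66.6 CPM at 4 h and 5.55, 7.06 and 7.21 CPM at 12 h and fell by 3.65 ± 0.28 (adjusted p = 0.000136). Inhba, the activin and inhibin beta-A subunit, was at 5482, 6739.5 and 3567 CPM and then 1218, 817 and 1003 CPM and fell by 2.44 ± 0.28 (adjusted p = 0.000597). Fshr, the FSH receptor, was at 34.8, 57.9 and 32.6 CPM and then 4.28, 4.42 and 7.26 CPM and fell by 3.03 ± 0.32 (adjusted p = 0.000449). In each case the groups were separate and the later one lower. The estrogen sulfotransferase Sult1e1 fell by 3.82 ± 0.23, the estrogen receptor Esr2 fell by 2.08 ± 0.16, and Inhbb fell by 2.64 ± 0.21. Hsd17b7, which also acts in cholesterol synthesis, rose by 2.05 ± 0.13. Of 12 hormone receptor genes 5 were higher and 3 lower, beside 25% and 28.6% of all genes. Insr, the insulin receptor, rose by 1.22 ± 0.22. The LH receptor Lhcgr was low at both times (4.67, 1.18 and 1.95 CPM and 4.87, 3.69 and 3.49 CPM), overlapped and was not called, though without replicate 1 at 4 h its adjusted p was 0.0416.

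Cholesterol genes rose almost as a block. Of 24 genes of cholesterol synthesis and uptake 22 were higher and 2, Mvk and Fdft1, were not called, beside 25% higher among all genes, with a median log2 change of 1.59 beside -0.06. Without replicate 3 at 4 h all 24 were higher, and without replicate 2 at 4 h Mvk was (adjusted p = 0.00156). Mvd, the mevalonate diphosphate decarboxylase, was at 22.7, 16.9 and 18.8 CPM at 4 h and 110.3, 112 and 92.2 CPM at 12 h and rose by 2.37 ± 0.15 (adjusted p = 8.13e-05). Lss, the lanosterol synthase, was at 42.9, 38.2 and 29.7 CPM and then 193, 193 and 178 CPM and rose by 2.29 ± 0.16 (adjusted p = 9.71e-05). Both were higher in every library at 12 h. The squalene epoxidase Sqle rose by 1.67 ± 0.20 and the regulator Srebf2 by 0.93 ± 0.22. Among genes of lipid droplets and cholesterol efflux 10 of 12 were higher and 2 lower, beside 25% and 28.6% of all genes. Soat1, which esterifies cholesterol for storage, was at 241, 298 and 184 CPM and then 1819.7, 1739.6 and 1707 CPM and rose by 2.80 ± 0.20 (adjusted p = 0.000113). The droplet coat protein Plin2 rose by 2.21 ± 0.14 and the efflux transporter Abca1 by 1.07 ± 0.23.

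The sterol response element TCACNCCAC was searched on both strands in the 250 bases before the transcription start of genes with a RefSeq promoter (GRCm38.p6). It occurred in 1 of the 16 cholesterol genes with such a promoter, or 6.25%, and in 1.28% of all 12358 tested genes with one. That gene was Hmgcs1, the cytosolic HMG-CoA synthase, which rose from 199, 176 and 259 CPM to 602, 584 and 578 CPM, by 1.41 ± 0.17. Its promoter, chr13:119690101-119690350 on the plus strand, is shown 5′ to 3′ with the match in capitals.
Hmgcs1: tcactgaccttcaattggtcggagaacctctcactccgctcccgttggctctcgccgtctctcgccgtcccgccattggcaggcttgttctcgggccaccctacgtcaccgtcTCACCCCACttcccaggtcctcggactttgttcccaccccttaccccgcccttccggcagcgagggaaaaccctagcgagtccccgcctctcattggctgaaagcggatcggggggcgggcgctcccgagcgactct

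Genes of the signals that hold the oocyte in meiotic arrest were mostly lower at 12 h. Npr2, the receptor for C-type natriuretic peptide by which cumulus cells make cGMP for the oocyte, was at 266, 374 and 202 CPM at 4 h and 109, 113 and 107 CPM at 12 h and fell by 1.42 ± 0.22 (adjusted p = 0.00189). Its ligand Nppc was low, at 9.04, 9.35 and 5.03 CPM and then 0.295, 0.352 and 0.37 CPM, and fell by 4.57 ± 0.37 (adjusted p = 0.000174). Gja1, the main connexin between cumulus cells, was at 3171, 3369 and 2093 CPM and then 1342, 1345 and 1292 CPM and fell by 1.18 ± 0.20 (adjusted p = 0.00271). All 3 were lower in every library at 12 h. Gja4, the connexin of the oocyte side, fell by 9.01 ± 0.95 and is oocyte-linked. Pde5a, a phosphodiesterase that breaks down cGMP, moved the other way, from 5.59, 5.55 and 4.86 CPM to 91, 111 and 113 CPM, and rose by 4.23 ± 0.15 (adjusted p = 2.76e-05), as did the kinase Prkg2 (1.89 ± 0.14) and Npr1 (2.17 ± 0.44). Of 11 tested genes of the list 3 were higher and 8 lower, beside 25% and 28.6% of all genes.

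Genes of granulosa identity (13) had 1 member higher and 8 lower, beside 25% and 28.6% of all genes. Without replicate 3 at 4 h 11 were lower, and the count of lower genes among all genes rose as well, from 4909 to 5776. Amh, anti-Mullerian hormone, was at 118, 192 and 45.2 CPM and then 14.7, 11.3 and 7.68 CPM and fell by 3.46 ± 0.54 (adjusted p = 0.002). Foxl2, the ovarian identity factor, was at 84.9, 70.3 and 48.1 CPM and then 48.7, 60.6 and 54.7 CPM, overlapped between the times and was not called (adjusted p = 0.171), but without replicate 3 at 4 h it was lower (adjusted p = 0.00163). Wt1 fell by 2.88 ± 0.58 and Foxo1 fell by 0.67 ± 0.12. Of 14 genes known to depend on oocyte factors in cumulus cells 5 were higher and 4 lower, beside 25% and 28.6% of all genes: the amino acid transporter Slc38a3 fell by 3.73 ± 0.42, from 21.6, 21.2 and 8.39 CPM to 1.03, 1.38 and 1.58 CPM, whereas Sqle and Cyp51 of the cholesterol list rose. Of 18 genes of BMP and TGF-beta signalling 4 were higher and 10 lower, beside the same shares of all genes. Id1 and Id3, which BMP signals induce, were lower (log2 changes -1.30 ± 0.23 and -1.13 ± 0.20), and Id4 fell by 3.63 ± 0.34. The receptor Tgfbr1 rose from 219, 272 and 143 CPM to 1460.3, 1209.9 and 1468 CPM, by 2.64 ± 0.25 (adjusted p = 0.000312).

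Replication and division genes were lower. All 22 genes of the S phase list fell (28.6% of all genes were lower), with a median log2 change of -1.56. Cdc6, which loads the replicative helicase, was at 23.4, 22 and 34 CPM at 4 h and 3.43, 2.26 and 3.8 CPM at 12 h and fell by 3.13 ± 0.28 (adjusted p = 0.000253). Mcm5, a subunit of that helicase, was at 132, 156 and 155 CPM and then 46, 36.5 and 37.5 CPM and fell by 1.95 ± 0.14 (adjusted p = 0.000122). Rrm2, the ribonucleotide reductase subunit, was at 135, 186 and 115 CPM and then 36.8, 33.2 and 34.5 CPM and fell by 2.12 ± 0.19 (adjusted p = 0.000249). None of these overlapped between the times.

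Of the 21 mitosis genes 19 fell (28.6% of all genes were lower), with a median of -1.15, and Ccnb2 and Anln were not called. Mki67, the proliferation marker Ki-67, was at 272, 272 and 234 CPM and then 158, 149.5 and 136 CPM and fell by 0.87 ± 0.12 (adjusted p = 0.0012). Cdk1, the mitotic kinase, was at 114, 148 and 116 CPM and then 68.7, 63.5 and 65.3 CPM and fell by 1.0 ± 0.14 (adjusted p = 0.00117). Both were lower in every library at 12 h. Cyclins, kinases and spindle genes are also made by the oocyte. Replicate 3 at 4 h was the highest of its group for 15 of the 21 mitosis genes and the lowest for 4. For the 22 S phase genes it was the highest for 11 and the lowest for 9. Among all 17143 genes tested it was the highest for 6933 and the lowest for 7775. Bub1b, the largest fall of the mitosis list (-2.76 ± 0.50), stood at 239.8, 193 and 712 CPM at 4 h, the last in replicate 3. Without that library 22 S phase and 19 mitosis genes were lower, with 2718 and 1396 CPM of oocyte markers in the other libraries at 4 h. The part of oocyte RNA in these falls was not tested.

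In the other direction, several brakes on the cell cycle rose. Btg2, an antiproliferative protein that p53 induces, was at 32.3, 55.3 and 31.6 CPM and then 428, 292 and 412 CPM and rose by 3.19 ± 0.28 (adjusted p = 0.000229). Cdkn1b, the inhibitor p27, was at 78.8, 74.2 and 66 CPM and then 297, 417 and 332 CPM and rose by 2.19 ± 0.16 (adjusted p = 0.000126). Gadd45a, a stress-induced growth arrest gene, rose by 2.48 ± 0.17. Ccnd2, the D-type cyclin of granulosa growth, fell by 2.43 ± 0.22, while Ccnd3 rose by 1.55 ± 0.13. Of the 14 genes of this list 6 were higher and 4 lower, beside 25% and 28.6% of all genes.

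Promoters of the replication and division genes were read for the motifs that E2F and the DREAM complex are known to bind. The E2F motif TTTNNCGC, searched on both strands, occurred in 6 of the 16 S phase genes with a promoter (37.5%) and in 7.65% of all tested genes with one. The cell cycle homology motif TTTGAA occurred in 7 of 18 mitosis genes (38.9%) and in 13.3% of all. Of these, Ccnb2 was not called. Both lists hold known replication and division genes, so these shares describe how the lists were drawn up. Among genes called lower outside the oocyte-linked set, the E2F motif occurred in 9.47% and TTTGAA in 13%. The 3 S phase promoters below belong to genes described above or to the same helicase, and the 2 mitosis promoters to the kinase Cdk1 and to Cdc20, an activator of the anaphase-promoting complex that fell by 0.77 ± 0.10. Mcm5 lies at chr8:75109259-75109508 (plus strand), Mcm6 at chr1:128359706-128359955 (minus), Cdc6 at chr11:98907901-98908150 (plus), Cdk1 at chr10:69352913-69353162 (minus) and Cdc20 at chr4:118437344-118437593 (minus). Each is printed 5′ to 3′ and ends just before the start site. Capitals mark matches to the E2F motif in the S phase genes and to TTTGAA in the mitosis genes. The Cdk1 promoter also holds an E2F match (tttcgcgc), left in lower case.
Mcm5: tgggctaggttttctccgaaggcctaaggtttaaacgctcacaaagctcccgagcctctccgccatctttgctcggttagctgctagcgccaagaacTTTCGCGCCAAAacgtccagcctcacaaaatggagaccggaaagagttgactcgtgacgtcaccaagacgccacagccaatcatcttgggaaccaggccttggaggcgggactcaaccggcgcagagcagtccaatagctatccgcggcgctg
Mcm6: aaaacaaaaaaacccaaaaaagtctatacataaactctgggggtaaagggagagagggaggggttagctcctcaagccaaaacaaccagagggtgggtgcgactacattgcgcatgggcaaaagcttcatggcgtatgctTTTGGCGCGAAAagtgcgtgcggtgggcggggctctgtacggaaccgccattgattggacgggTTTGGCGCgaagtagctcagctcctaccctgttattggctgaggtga
Cdc6: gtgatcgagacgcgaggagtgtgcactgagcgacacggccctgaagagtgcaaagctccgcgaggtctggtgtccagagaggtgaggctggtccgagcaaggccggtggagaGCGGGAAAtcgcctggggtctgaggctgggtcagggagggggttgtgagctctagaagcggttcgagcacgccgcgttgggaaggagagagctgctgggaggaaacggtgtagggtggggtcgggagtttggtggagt
Cdk1: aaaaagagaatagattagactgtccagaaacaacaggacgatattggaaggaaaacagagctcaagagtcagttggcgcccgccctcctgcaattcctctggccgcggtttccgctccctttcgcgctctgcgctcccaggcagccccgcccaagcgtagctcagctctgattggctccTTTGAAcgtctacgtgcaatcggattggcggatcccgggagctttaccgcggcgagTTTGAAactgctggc
Cdc20: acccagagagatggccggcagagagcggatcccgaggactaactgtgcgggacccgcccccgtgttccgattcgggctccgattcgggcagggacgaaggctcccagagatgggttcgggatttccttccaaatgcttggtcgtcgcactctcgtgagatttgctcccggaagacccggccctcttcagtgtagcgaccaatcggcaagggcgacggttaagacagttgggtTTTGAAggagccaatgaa

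**Figure D3:**
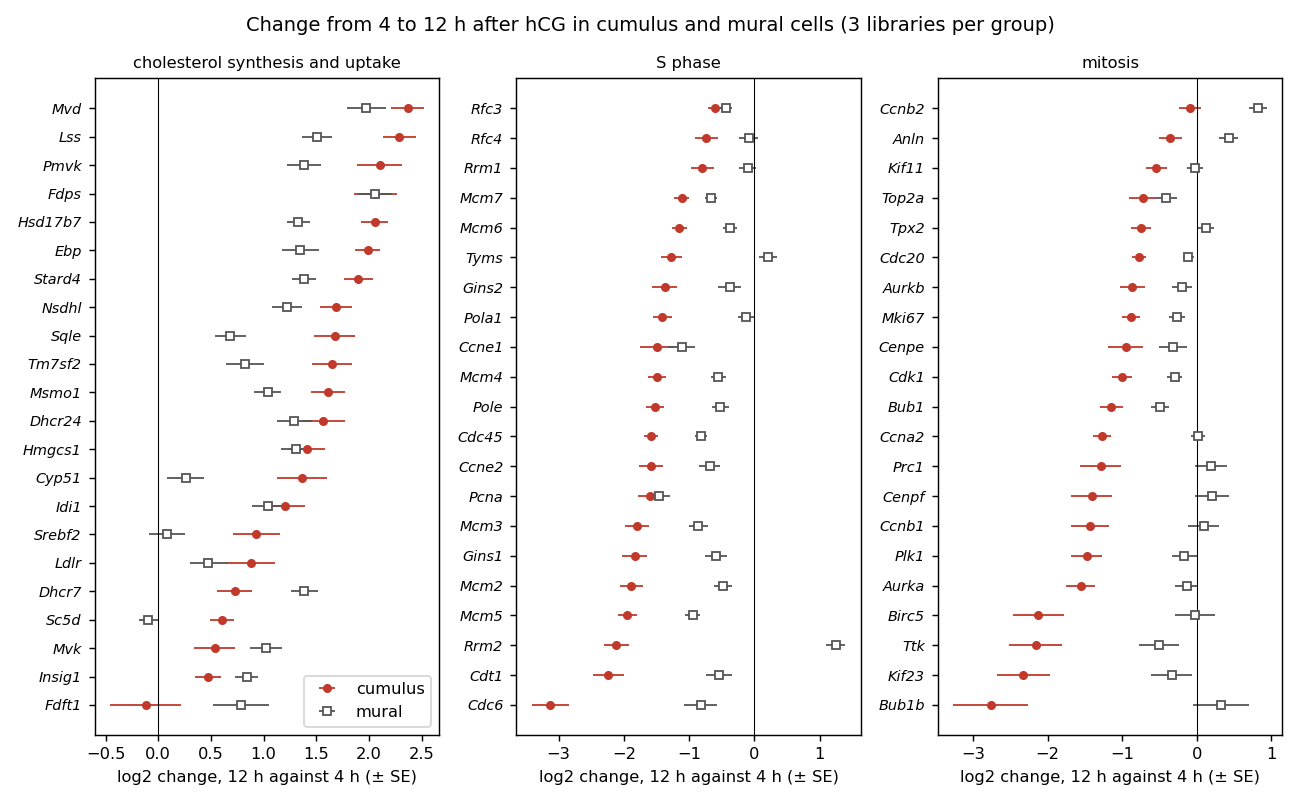
Log2 change from 4 to 12 h (± SE) of genes of cholesterol synthesis and uptake, S phase and mitosis, in cumulus cells (filled circles) and mural cells (open squares), 3 libraries per group. The cumulus change was the lower one for every S phase and mitosis gene drawn, and Rrm2 had a cumulus change of -2.12 and a mural change above 0. The part of oocyte RNA in the cumulus falls was not tested.

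Of 18 tested hypoxia and angiogenic genes 10 were higher and 4 lower, beside 25% and 28.6% of all genes. Bnip3, a mitophagy receptor that HIF induces, was at 12.4, 16.5 and 13.1 CPM at 4 h and 145, 189 and 155 CPM at 12 h and rose by 3.48 ± 0.18 (adjusted p = 5.68e-05). Apln, apelin, was at 0.449, 0.121 and 0.167 CPM and then 18.5, 13.5 and 14.8 CPM and rose by 5.86 ± 0.49 (adjusted p = 0.000187). Ndrg1 was at 14.8, 14.4 and 6.36 CPM and then 114, 152 and 116 CPM and rose by 3.36 ± 0.34 (adjusted p = 0.000395). The 2 times were separate for each. Adrenomedullin (Adm) rose by 3.42 ± 0.50 and Angptl4 by 2.91 ± 0.16. Vegfa, the main angiogenic factor, was at 422, 545 and 294 CPM and then 708, 556 and 611 CPM and was not called (adjusted p = 0.0996), but it was higher without replicate 2 (0.0179) or replicate 3 (0.0466) at 4 h and in a fit to all 18 libraries (0.00583), whereas Vegfc rose by 2.62 ± 0.31. Endothelial markers moved unevenly beside them. The sum of that list ran from 24.2 to 48.4 CPM at 4 h and from 164.1 to 200.8 CPM at 12 h, nearly all of it from Cdh5, which was at 14, 12.6 and 7.95 CPM and then 167, 149 and 175 CPM. Kdr was higher, Pecam1 and Tek were lower and are oocyte-linked, Vwf was not called, and Emcn and Cldn5 were too low to be tested. Kdr was not called by limma voom (adjusted p = 0.0749). Pecam1 was not called without replicate 2 or 3 at 12 h (0.0558 and 0.0619), nor Tek without replicate 3 at 12 h (0.0549). The part of endothelial RNA in these rises was not tested.

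Of the glycolysis and lactate genes 10 of 19 were higher and 2 lower, beside 25% and 28.6% of all genes. The hexokinase Hk1 rose from 22.5, 19.4 and 14.3 CPM to 92.2, 103 and 93.2 CPM, by 2.30 ± 0.18 (adjusted p = 0.000147), the phosphofructokinase Pfkl by 1.67 ± 0.18 and the lactate exporter Slc16a3 by 1.23 ± 0.20. Ldhb fell by 4.0 ± 0.55 and is oocyte-linked.

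The hypoxia response motif ACGTG, on either strand, occurred in 10 of the 14 genes of the hypoxia list with a RefSeq promoter (71.4%) and in 23.9% of all tested genes with one. The list holds genes known for their response to hypoxia, so this share describes how it was drawn up. Bnip3 and Ankrd37, which rose by 2.59 ± 0.35, hold matches, those of Bnip3 being 1 palindrome read on both strands, at chr7:138909507-138909756 (minus strand) and chr8:45999851-46000100 (minus strand), and are shown in the same way.
Bnip3: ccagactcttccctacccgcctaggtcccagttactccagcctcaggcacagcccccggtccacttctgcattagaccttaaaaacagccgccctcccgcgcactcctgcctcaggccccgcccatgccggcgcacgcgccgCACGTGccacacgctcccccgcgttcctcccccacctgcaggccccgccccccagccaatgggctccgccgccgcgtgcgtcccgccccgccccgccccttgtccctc
Ankrd37: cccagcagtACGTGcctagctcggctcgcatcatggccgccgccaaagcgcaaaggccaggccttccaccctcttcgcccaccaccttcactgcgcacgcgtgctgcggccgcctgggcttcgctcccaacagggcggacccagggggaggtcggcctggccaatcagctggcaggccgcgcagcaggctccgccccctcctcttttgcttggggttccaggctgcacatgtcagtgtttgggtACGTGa

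Of the neuropeptides and granins, secreted messengers better known from neurons, 10 of 14 tested fell and 1 rose. Among all genes 28.6% were lower and 25% higher. Pdyn, prodynorphin, was at 36.6, 52.2 and 25.1 CPM and then 2.57, 3.14 and 2.72 CPM and fell by 3.82 ± 0.30 (adjusted p = 0.000147). Penk, proenkephalin, was at 43.8, 45.8 and 35.9 CPM and then 10.2, 7.15 and 11 CPM and fell by 2.21 ± 0.20 (adjusted p = 0.000262). Neither overlapped. Nts, neurotensin, was at 260.3, 307 and 179 CPM and then 232, 185 and 211 CPM, overlapped and was not called (adjusted p = 0.241), but without replicate 3 at 4 h it was lower (adjusted p = 0.0021). Tac1 fell by 4.15 ± 0.45, and Pomc was the member that rose (1.35 ± 0.30), at 2.48, 2.99 and 2.96 CPM. In the endothelin system (6 tested, 1 higher and 4 lower) the ligands Edn1 and Edn2 parted: Edn1 fell by 4.38 ± 0.42, from 7.11, 13.8 and 8.45 CPM to 0.68, 0.44 and 0.343 CPM, and Edn2 rose by 4.06 ± 0.96, from 0, 0.485 and 0.167 CPM to 4.61, 3.25 and 3.17 CPM.

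All 13 mitochondrially encoded protein transcripts were lower (28.6% of all genes were), by between -0.71 and -1.19. Among them mt-Co1, a core subunit of cytochrome oxidase, was at 17695, 12973 and 15623 CPM and then 7771, 7778 and 8999.5 CPM and fell by 0.98 ± 0.18 (adjusted p = 0.00417). No library at 12 h reached the lowest at 4 h. All entries whose names start with mt-, a set not limited to these 13, held between 4.35% and 6.2% of counts at 4 h and between 2.52% and 2.98% at 12 h. In mural cells the median log2 change of the 13 protein transcripts was -0.72. Of the 13 differences between the cell types 0 were called by edgeR, DESeq2 or limma voom, with 0, 1 and 0 at an unadjusted p under 0.05.

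**Figure D4:**
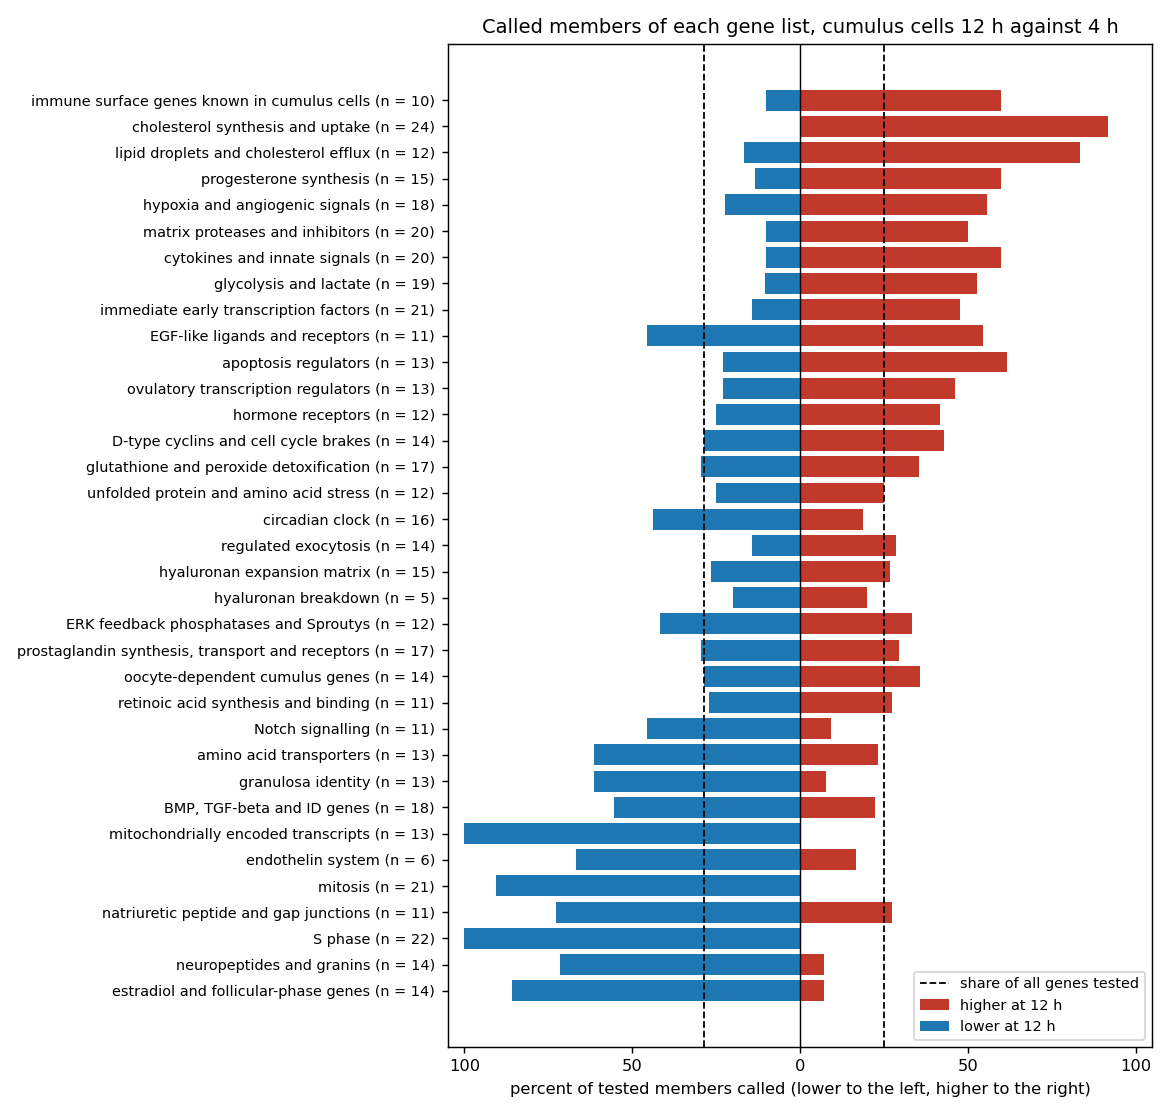
Percent of the tested members of each gene list that were higher (right, red) or lower (left, blue) at 12 h against 4 h in cumulus cells, with the shares of all genes tested, 25% and 28.6%, as dashed lines. Lists are ordered by their median log2 change, and lists can share genes.

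The cell types were then compared directly, by the difference between the cumulus change and the mural change from 4 to 12 h, fitted to the 12 libraries of both. Of 18744 genes tested, the cumulus change was the higher one for 3416 (18.2%) and the lower one for 4207 (22.4%). Scaling by library totals alone gave 2517 and 5102, so that 33.0% of the called differences were higher against 44.8%, and moved the median over all genes from -0.07 to -0.24. Where each cell type was called by itself (19.7% of genes were higher and 15.3% lower in mural cells), 2548 genes were higher in both, 1555 lower in both, 365 higher in cumulus and lower in mural cells, and 265 the reverse.

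Outside the oocyte-linked set, among genes with at least 20 CPM in the highest group and no overlap between the cumulus groups, the 5 largest differences toward cumulus cells took in genes that rose there and genes that fell in mural cells. Thbd (6.64 ± 0.58) and Tgm2 (6.04 ± 0.41) rose in cumulus cells, while in mural cells Thbd changed by 0.37 ± 0.34 and Tgm2 by 2.29 ± 0.26. Npr1, the receptor for atrial natriuretic peptide, differed by 6.05 ± 0.50 (adjusted p = 9.6e-06). It was at 11.4, 7.22 and 3.89 CPM and then 25.2, 51.5 and 29.2 CPM in cumulus cells and at 1430.4, 1854 and 1519.7 CPM and then 84.6, 117 and 119.7 CPM in mural cells. The ectonucleotidase Enpp3 differed by 6.24 ± 0.26, with mural means of 289 ± 55.7 CPM and 16.6 ± 0.62 CPM. Wisp2, a secreted CCN family protein, had no counts in cumulus cells at 4 h and 12.2, 16.1 and 15.8 CPM at 12 h, at least 557-fold higher, and differed by 6.89 ± 0.77. It rose in mural cells too, and with sample weights by group (limma voom) its difference was not called (adjusted p = 0.134).

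In the opposite direction, by the same limits, the largest difference was that of Ihh (-5.10 ± 0.48, adjusted p = 2.07e-05), whose mural means were 63.9 ± 7.86 CPM and 36.4 ± 12.6 CPM. Its neighbour on chromosome 1, Nhej1, an end-joining DNA repair gene, differed by -4.31 ± 0.78. Its cumulus level at 4 h was 25.8, 16.1 and 92.6 CPM, highest in replicate 3, and without that library it differed by -3.16 ± 0.35 (adjusted p = 2.12e-06). The MYC family member Mycl differed by -4.45 ± 0.51, the lymphangiogenic protein Ccbe1 differed by -4.38 ± 0.33 and Mro, maestro, differed by -4.37 ± 0.33. S phase and mitosis genes differed in the same direction, 19 of 22 and 19 of 21 differences being called lower in cumulus cells. Among all genes 22.4% were. The 15 oocyte markers also fell in cumulus cells, with a median mural change of 0.04, and the part of oocyte RNA in these differences was not tested. Of the 24 cholesterol genes 13 differed toward cumulus cells and 1 the other way, beside 18.2% and 22.4% of all genes. Rrm2 fell by 2.12 ± 0.19 in cumulus cells and rose by 1.24 ± 0.15 in mural cells, a difference of -3.35 ± 0.21 (adjusted p = 1.08e-06).

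Areg, Btc and Ptx3 fell further in mural cells, and Ereg rose in cumulus and fell in mural cells. The difference was 3.79 ± 0.46 for Ereg, 2.83 ± 0.28 for Btc and 2.29 ± 0.48 for Areg, whose mural changes were -2.59 ± 0.33, -4.58 ± 0.23 and -4.70 ± 0.39. Hbegf differed the other way (-3.10 ± 0.48), with a mural change of -0.34 ± 0.31. Ptx3 differed by 3.13 ± 0.45 and Tnfaip6 by 3.02 ± 0.36. Tnfaip6 was at 1262, 2322 and 1386 CPM in mural cells at 4 h and at 144, 126 and 123 CPM at 12 h, with no overlap, whereas the cumulus libraries of the 2 times overlapped. Cyp11a1 differed by 3.06 ± 0.36 and Star by 2.49 ± 0.31, both toward cumulus cells, but both stayed at higher levels in mural cells. Cyp11a1 averaged 2116 and 4423 CPM in mural cells at 4 and 12 h and 19.2 and 356 CPM in cumulus cells. Star averaged 3112 and 1369 CPM in mural cells and 133 and 348 CPM in cumulus cells. The mural changes were 1.10 ± 0.25 for Cyp11a1 and -1.15 ± 0.22 for Star. Has2 fell in both, and its difference of 0.78 ± 0.44 was not called (adjusted p = 0.184).

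**Figure D5:**
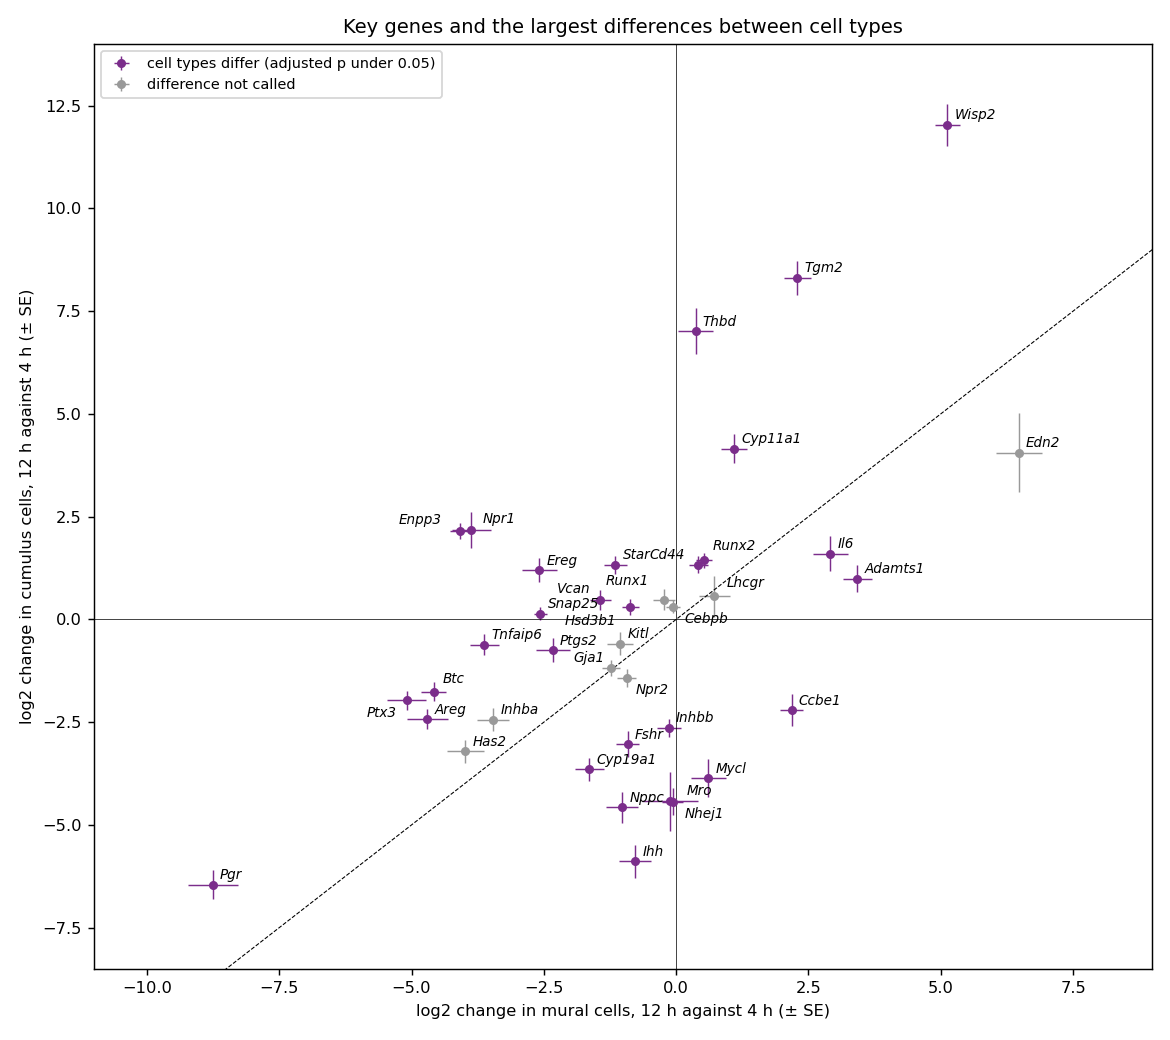
Log2 change from 4 to 12 h (± SE) in cumulus cells (vertical axis) against mural cells (horizontal axis) for key genes of ovulation and the 10 largest differences outside the oocyte-linked set, 3 libraries per group. Purple points are genes whose difference between cell types was called, and on the dashed line the changes are equal; Ereg, Ptx3 and Tnfaip6 lie above it and Ihh, Nppc and Fshr below it.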

How the data were processed

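RNA from cumulus and mural granulosa cells was enriched for polyA RNA, made into stranded libraries and sequenced, per the labels' protocols. Reads were mapped and counted by the authors in CLC Genomics Workbench with default parameters, per the series' design text, on GRCm38, per the submitters' processing notes. The deposited table holds whole-number counts per gene, not normalized, for 41325 entries, of which 40804 matched 1 gene of the mouse annotation by symbol. The sources used here do not give the software version, annotation or strand setting of the counting.

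From these counts, genes were tested with edgeR 4.0.16 (TMM scaling, filterByExpr with a minimum count of 10, robust quasi-likelihood F-test, Benjamini-Hochberg adjusted p under 0.05). The comparison of 12 h with 4 h used the 6 cumulus libraries (4 residual degrees of freedom), and the difference between cell types used 12 libraries. The SE is the log2 change divided by the square root of F. CPM were scaled with TMM over all 18 libraries. The tested genes held 99.92% of the counts. A floor of 3 counts per group served for genes at 0. Depth limits the precision for low genes, since 3 counts were worth between 0.0673 and 0.091 CPM in the 6 libraries.

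Alternatives were other filters, scalings (median-ratio, library totals), DESeq2 1.42.0, limma 3.58.1 voom with group weights, a replicate block, more libraries in the fit and leaving out each library. Members and lists were chosen with earlier results of these data known. Named genes are 30 key genes of ovulation, the 10 largest rises and falls (at least 20 CPM in the higher group, no overlap, no clone, predicted or RIKEN names), 10 falls outside oocyte-linked genes, up to 4 called members with the largest change per list, and, by the same limits, the 5 largest differences between cell types in each direction outside oocyte-linked genes. A few genes of the lists, counted in them, are not reported here by name. Other list members and overlapping neighbours were named after their values were seen. On simulated counts for this comparison (16809 genes), edgeR recovered 22.92% of genes changed by a log2 of 1 and 66.33% of those changed by 2. Of its calls 5.43% were false. Only 96 and 98 genes were changed by these sizes, far fewer than were called in the data, so these shares need not hold for the data. Promoter sequences are from RefSeq (GRCm38.p6). Of the 17143 tested genes 12358 had one.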

Additional observations from a re-analysis of the deposited data

Results flagged for a closer look

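For 34 of the 44 genes examined for it, the change from 4 to 12 h differed between cumulus and mural cells by edgeR's quasi-likelihood test of the difference itself (adjusted p under 0.05). Values are the cumulus change minus the mural change on the log2 scale. Among the ovulatory signals the difference was 2.29 for Areg, 3.79 for Ereg, 2.83 for Btc, 1.60 for Ptgs2, 2.31 for Pgr, 0.92 for the transcription factor Runx2, 2.72 for the exocytosis gene Snap25 and -1.31 for Il6. Among matrix genes it was 3.13 for Ptx3, 3.02 for Tnfaip6, 1.92 for Vcan, 0.92 for Cd44 and -2.42 for the protease Adamts1.

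Among steroid, follicular-phase and natriuretic peptide genes it was 2.49 for Star, 3.06 for Cyp11a1, 1.18 for Hsd3b1, -2.0 for Cyp19a1, -2.10 for Fshr, -2.49 for Inhbb and -3.54 for Nppc. Among genes with at least 20 CPM in the highest group and no overlap between the cumulus groups, outside the oocyte-linked set, the 5 largest positive differences were 6.89 for Wisp2, 6.64 for Thbd, 6.24 for Enpp3, 6.05 for Npr1 and 6.04 for Tgm2. By the same limits the 5 largest negative ones were -5.10 for Ihh, -4.45 for Mycl, -4.38 for Ccbe1, -4.37 for Mro and -4.31 for Nhej1. Of genes of the lists it was 3.13 for Pdcd1, 5.38 for Cd52, -3.35 for Rrm2 and -3.10 for Hbegf. Adamts1 itself was higher in cumulus cells at 12 h (log2 change 0.99 ± 0.33, adjusted p = 0.039). It was not called without replicate 1 at 4 h (0.108) or without replicate 1, 2 or 3 at 12 h (0.116, 0.0825 and 0.0679). Nor was it called with no filter on low counts (0.0611). The difference of Il6 lost its call under several alternatives, with adjusted p-values from 0.0506 (with a replicate block) to 0.104 (without replicate 1 of cumulus cells at 4 h). Among these were the fits without replicate 2 or 3 of cumulus cells at 12 h, replicate 1 or 3 of mural cells at 4 h and each mural library at 12 h.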

How the results depend on the processing

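Without single libraries the count of genes higher at 12 h in cumulus cells ran from 3252 to 5309 and that of lower genes from 3669 to 5776, and the count of differences toward cumulus cells ran from 2846 to 4063 and away from them from 3529 to 4861. A change of at least 2-fold left 2432 higher genes and 1739 higher differences. A replicate block gave 3990 higher and 4446 lower genes, and 3397 and 4019 differences. Equal replicate numbers did not deviate together (correlations of -0.0017, -0.029 and 0.018), and no library at 4 h correlated best with its own number. With so few libraries, and oocyte RNA dominating the spread at 4 h, this check cannot exclude a pairing, and the labels name none. All other counts over all genes stayed within 1.5 times under the alternatives run. Values that changed sign were of results that were not called or had no test. The median of the retinoic acid list (-0.32) was 0.032 with no filter and 0.048 in a fit to 18 libraries. The difference of Gja1 (0.06) was -0.11 by library totals and ran from -0.095 (without replicate 3 of cumulus cells at 4 h) to 0.19 without single libraries, and was -0.06 without replicate 2 of mural cells at 12 h. That of Lhcgr (-0.19) ran from -0.52 to 0.57, the latter without replicate 1 of cumulus cells at 4 h. Fdft1 (-0.12) was 0.0047 by limma voom, 0.0099 with a replicate block and from -0.34 to 0.41 without single libraries, the latter without replicate 3 at 4 h. Ccnb2 ran from -0.20 to 0.077 (without replicate 3 at 4 h), Vwf from -1.70 to 0.012 (without replicate 1 at 4 h) and Rprd1b from -0.33 to 0.11 (without replicate 2 at 4 h). The causes were not tested. Over the 262 genes examined in cumulus cells, 4309 values under alternatives kept their direction and their side of the threshold, 93 (30 genes) lost a call and 36 (15 genes) gained one. Over 44 differences between cell types these numbers were 926, 16 (5 genes) and 22 (6 genes). Depth limits genes near 3 counts per library.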

Other observations

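Of 13 tested apoptosis regulators 8 were higher and 3 lower at 12 h, beside 25% and 28.6% of all genes. Bbc3, the p53 target PUMA that promotes apoptosis, was at 2.92, 2.64 and 1.86 CPM in the cumulus libraries at 4 h and 19.3, 16.8 and 17.6 CPM at 12 h and rose by 2.79 ± 0.23 (edgeR, adjusted p = 0.000182). Mcl1, which opposes apoptosis, was at 204, 252 and 126 CPM and then 475, 449 and 433 CPM and rose by 1.16 ± 0.24 (adjusted p = 0.00617). Neither overlapped between the times. In the endoplasmic reticulum, the disulfide isomerase Pdia4 rose from 386, 396 and 268 CPM to 2333, 2737 and 2217 CPM, by 2.73 ± 0.20, and the stress gene Asns, asparagine synthetase, fell by 1.19 ± 0.26. The list of unfolded protein and amino acid stress had 3 of 12 members higher and 3 lower, near the shares of all genes. Of 13 amino acid transporters 3 were higher and 8 lower, beside 25% and 28.6% of all genes.

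Of 17 glutathione and peroxide genes 6 were higher and 5 lower, beside the same shares of all genes. Gsr, which regenerates reduced glutathione, rose by 2.19 ± 0.18, while Gclc, of the rate-limiting step of its synthesis, fell by 1.52 ± 0.22. Of 16 clock genes 3 were higher, or 5 without replicate 3 at 4 h, and 7 lower, beside 25% and 28.6% of all genes. The repressor Nr1d1 fell by 2.19 ± 0.35 and its relative Nr1d2 rose by 1.28 ± 0.22, from 12, 13.3 and 8.17 CPM to 24.8, 32.7 and 27.4 CPM. Of 11 Notch genes 1 was higher, or 3 without replicate 3 at 4 h, and 5 were lower, beside the same shares. Of 14 genes of regulated exocytosis 4 were higher and 2 lower, again beside these shares. Among 11 tested genes of retinoic acid synthesis and binding 3 were higher and 3 lower, or 5 lower without replicate 3 at 4 h: the retinol-binding protein receptor Stra6 fell by 5.35 ± 0.64, and the retinal dehydrogenase Aldh1a3 rose by 1.83 ± 0.30.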
